A study of Homo sapiens with 9 samples.

Results

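The miR-548 family was followed through small RNA libraries of HEK293E and K562 cells transfected with siRNAs against ERH or with control siRNAs. Its members are all rows of the deposited count table whose name starts with hsa-mir-548. They are 72 of 1485 hairpin rows, and the other 1413 rows served as the comparison. Small RNA of 18 to 30 nt was sequenced from 9 libraries, which held 2609929 to 3320017 hairpin counts each. HEK293E, a derivative of the human embryonic kidney line HEK293, was transfected on 2 days and harvested on day 5, with siGFP, siControl and siERH-3 libraries from each of replicates 1 and 2 and a siERH-5 library from replicate 2 only. K562, a human leukaemia line with erythroid features, received siGFP or siERH-5 by electroporation, with 1 library each, and was harvested 4 days later. The 4 siGFP and siControl libraries of HEK293E are called control libraries here, and the 3 siERH-3 and siERH-5 libraries are called siERH libraries. No genotype differs between the groups of a line. The extent of the knockdown is not shown by small RNA counts and was not checked here. The labels do not say whether replicates came from separate cultures, so p-values measure only the spread between these samples, which may be technical.

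A miRNA is cut from its hairpin by the Microprocessor, a complex of the nuclease DROSHA and its RNA-binding partner DGCR8, and then by DICER. ERH is a small nuclear protein known to bind DGCR8. Hairpins of the miR-548 family come from MADE1, a short non-autonomous DNA transposon of the mariner group whose nearly palindromic copies fold back on themselves. Because many copies lie across the genome, family members resemble each other, and a read of about the length of a mature miRNA can fit several of them.

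The mature sequences show how alike the members are. Sequences are from RefSeq (GRCh38.p14), 5' to 3', with the seed (bases 2 to 8, which pair with target RNAs) in capitals. The RefSeq table held a mature sequence for 50 of the 72 members, with 54 mature names, 52 distinct sequences and 29 seeds. The commonest seed was AAAGUAA, in 11 mature names, shared with hsa-miR-559 outside the family. The following carry it, and are shown because members with this 1 seed differed in their siERH call: the first 4 come from hairpins called higher with siERH in HEK293E and the last 5 from hairpins not called. Of the first 4, mir-548y reached the mean of 10 counts needed for testing only through the siERH libraries.
hsa-miR-548ab: aAAAGUAAuuguggauuuugcu
hsa-miR-548aq-5p: gAAAGUAAuugcuguuuuugcc
hsa-miR-548ar-5p: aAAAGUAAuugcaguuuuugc
hsa-miR-548y: aAAAGUAAucacuguuuuugcc
hsa-miR-548ap-5p: aAAAGUAAuugcggucuuu
hsa-miR-548as-5p: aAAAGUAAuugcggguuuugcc
hsa-miR-548b-5p: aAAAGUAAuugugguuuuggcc
hsa-miR-548j-5p: aAAAGUAAuugcggucuuuggu
hsa-miR-548w: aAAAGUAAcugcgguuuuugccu
The next set is from hairpins with large increases and seeds other than AAAGUAA, of which mir-548t also reached that mean only through the siERH libraries.
hsa-miR-548l: aAAAGUAUuugcggguuuuguc
hsa-miR-548t-5p: cAAAAGUGaucgugguuuuug
hsa-miR-548au-3p: uGGCAGUUacuuuugcaccag
hsa-miR-548o-3p: cCAAAACUgcaguuacuuuugc
The hairpins mir-548f-1 to mir-548f-5 share hsa-miR-548f-3p, whose seed AAAACUG is also that of hsa-miR-548ar-3p, and mir-548f-1 adds a 5p sequence. These are shown because mir-548f-1 and mir-548f-4 were the 2 members called lower.
hsa-miR-548f-3p: aAAAACUGuaauuacuuuu
hsa-miR-548f-5p: uGCAAAAGuaaucacaguuuuu
hsa-miR-548ar-3p: uAAAACUGcaguuauuuuugc
The last set holds the other arm of the most abundant member, mir-548b, and both arms of mir-548x, which was abundant in K562 and nearly absent in HEK293E.
hsa-miR-548b-3p: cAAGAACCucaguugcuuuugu
hsa-miR-548x-5p: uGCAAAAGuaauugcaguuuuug
hsa-miR-548x-3p: uAAAAACUgcaauuacuuuc
The 5p sequence of mir-548x is identical to those of mir-548g and mir-548aj. The count table gives 1 row per hairpin, so the 5p and 3p arms were not separated.

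The hairpins share features that the choice by name did not use. All 72 were matched by name to the GENCODE 29 annotation (GRCh38), where they lie on 22 chromosomes. Their GC content was 26.8% to 44.6% with a median of 35.1%, against a median of 52.2% for the other hairpins. Of the 72 members, 40 lie in an intron on the same strand, 21 are intergenic, 11 lie antisense to a gene and 0 overlap an exon on the same strand. None of the 72 had another hairpin within 10 kb on the same strand, whereas 329 of the other hairpins (23.4%) did. The predicted folding energy per nucleotide was close to that of the other hairpins, with medians of -0.474 and -0.469 kcal/mol. On the opposite strand, 6 members lie at exactly the coordinates of another member, as 3 pairs: mir-548d-1 with mir-548aa-1, mir-548d-2 with mir-548aa-2, and mir-548c with mir-548z. The use of strand in counting is not given in the sources used here, so reads of the partners of such a pair may not be told apart.

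Nearly every member was detected in HEK293E. At least 1 count was found for 60 to 67 of the 72 members in HEK293E control libraries, for 68 to 70 with an siRNA against ERH, for 58 in K562 with siGFP and 62 in K562 with siERH-5. As shares, 83.3% to 97.2% of the members and 80.8% to 86.9% of the other rows were detected in HEK293E. In K562 the shares were 80.6% and 86.1% for the members, against 71.0% and 77.9% for the other rows. All 72 members had a count in at least 1 HEK293E library, 56 in all 7, and 8 had no count in either K562 library. A count of 0 allows up to 3 counts, or 0.904 to 1.15 CPM of library totals across the libraries.

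Most members were scarce. Over the 7 HEK293E libraries the mean count was under 1 for 4 members, 1 to 10 for 23, 10 to 100 for 22, 100 to 1000 for 22 and above 1000 for 1, mir-548b. A mean of at least 10 counts, the minimum for testing, was reached by 45 of 72 members in HEK293E (62.5%, against 51.5% of the other rows) and by 41 of 72 in K562 (56.9% against 42.8%). The members just above the minimum were mir-548am, mir-548as and mir-548f-2, with 4 to 21 counts per HEK293E library. Those just below it were mir-548aa-1, mir-548aw and mir-548al, with 1 to 20. The 27 members below the minimum are in no count of calls below.

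The labelled lines were checked against hairpins known for blood cells and for HOX gene clusters. The 6 K562 markers, such as hsa-mir-144 and hsa-mir-451a, made up 14.4% to 15.0% of the counts in K562, and in HEK293E 0.203% to 0.314% with control siRNAs and 0.204% to 0.224% with siERH. The 5 HEK293E markers, such as hsa-mir-196b, made up 2.49% to 3.38% with control siRNAs and 3.25% to 3.65% with siERH in HEK293E, and 0.395% to 0.560% in K562. None of the 11 markers was at 0 in both K562 libraries or in all libraries of a HEK293E arm. The ranges of the K562 markers in the control and siERH libraries of HEK293E overlapped. Of the 5 K562 markers tested in HEK293E, 1 was called higher with siERH (hsa-mir-142) and 2 lower (hsa-mir-486-1 and hsa-mir-486-2). Of the 5 HEK293E markers, hsa-mir-615 was called lower (-0.67, adjusted p = 0.0135 by edgeR) and 4 did not pass. Their part in the results below was not tested.

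With siERH, the family took up more of the HEK293E libraries. It held 0.299% to 0.335% of all counts with control siRNAs (4 libraries) and 0.547% to 0.553% with siERH (3 libraries), and the groups did not overlap. The K562 siGFP library gave 0.153% (95% Wilson interval 0.148% to 0.158%). The K562 siERH-5 library gave 0.293% (0.287% to 0.299%). These intervals cover counting error only. Rows that are copies of one another may count the same reads, so a share is a sum over rows and may count a read more than once. All such values are relative to the other hairpins, and less RNA per cell and fewer cells cannot be told apart.

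**Figure D1:**
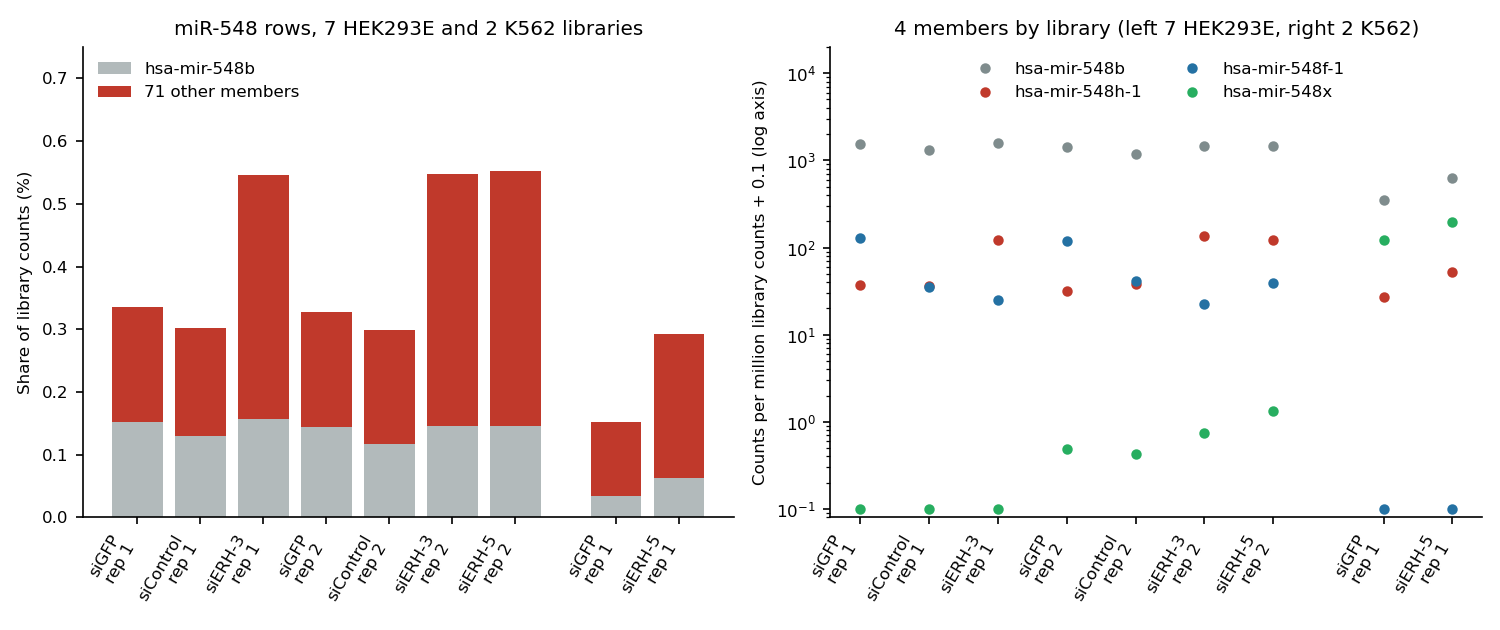
Left, the share of each library's counts (%) in the miR-548 rows, with hsa-mir-548b in grey and the 71 other members in red; right, CPM of library totals plus 0.1 for 4 members on a log axis, 1 point per library. The red part is 0.171% to 0.183% in the 4 control and 0.390% to 0.407% in the 3 siERH libraries of HEK293E, hsa-mir-548f-1 is highest in both siGFP libraries and at 0 in K562, and hsa-mir-548x is at or near 0 in HEK293E.

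The most abundant member did not pass the test. hsa-mir-548b (chr6:119069047-119069143, minus strand, in an intron of FAM184A) had 4954 and 3764 counts with siGFP, 3916 and 3605 with siControl, 4846 and 4512 with siERH-3 and 4732 with siERH-5. The counts of the control and siERH libraries overlapped. Scaled with TMM (edgeR's correction of library sizes for composition), its control level was 1436 ± 102 CPM (counts per 1e+06; SD, n = 4) and its siERH level 1385 ± 46.8 CPM (SD, n = 3). Its log2 fold change was -0.05 ± 0.14 (SE; adjusted p = 0.788 by the quasi-likelihood test of edgeR, Benjamini-Hochberg over 773 hairpins). Its direction depended on the scaling, with 0.13 when only library totals were used.

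Of the family's counts, mir-548b made up 39.3% to 45.5% in control and 26.4% to 28.7% in siERH libraries, and these did not overlap. Without mir-548b the family held 0.171% to 0.183% of the counts in control and 0.390% to 0.407% in siERH libraries. In K562, mir-548b was 22.7% of the family's counts in the siGFP library and 21.6% in that of siERH-5, and its Wilson intervals there (21.4% to 24.0% and 20.8% to 22.4%) overlapped. The family without it held 0.118% and 0.230% of the K562 counts.

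The test of siERH against control in HEK293E was fitted to the 773 hairpins that reached the count minimum. It called 31 of the 45 members tested higher and 2 lower at an adjusted p under 0.05, and 12 did not pass. Over all hairpins tested, 23.8% were called higher and 16.2% lower. The members' median log2 fold change was 1.18, against -0.05 for the other hairpins, and 40 of 45 members lay above 0, against 47.3% of the others. An increase of at least 2-fold was called for 28 members (16.4% of all hairpins), and in 33 all 3 siERH libraries lay above all 4 controls (25.5% of all hairpins). Some of these rows are near-identical copies that may count the same reads, and the 31 members called higher make up 23 sets of distinct copies. With each set counted once, 23 of 34 members tested were called higher and 2 lower (24.5% and 14.8% of all 682 hairpins). The 2 lower ones, mir-548f-1 and mir-548f-4, share a mature sequence but were kept apart because mir-548f-1 adds a 5p sequence. Sets joined by mature sequence could hold rows of unlike counts. The uncalled rows mir-548f-2, mir-548f-3 and mir-548ag-1 were left out in this way. Of the 31, the rows mir-548am, mir-548av, mir-548c, mir-548t and mir-548y had a mean under 10 counts in the controls and reached the minimum only through the siERH libraries, so a row admitted in that way had to differ. No member at a mean of 30 counts or more depended on the siERH libraries in this way, and 24 of those 33 members were called higher, against 107 of 536 other hairpins, 3 of which did depend on them.

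**Figure D2:**
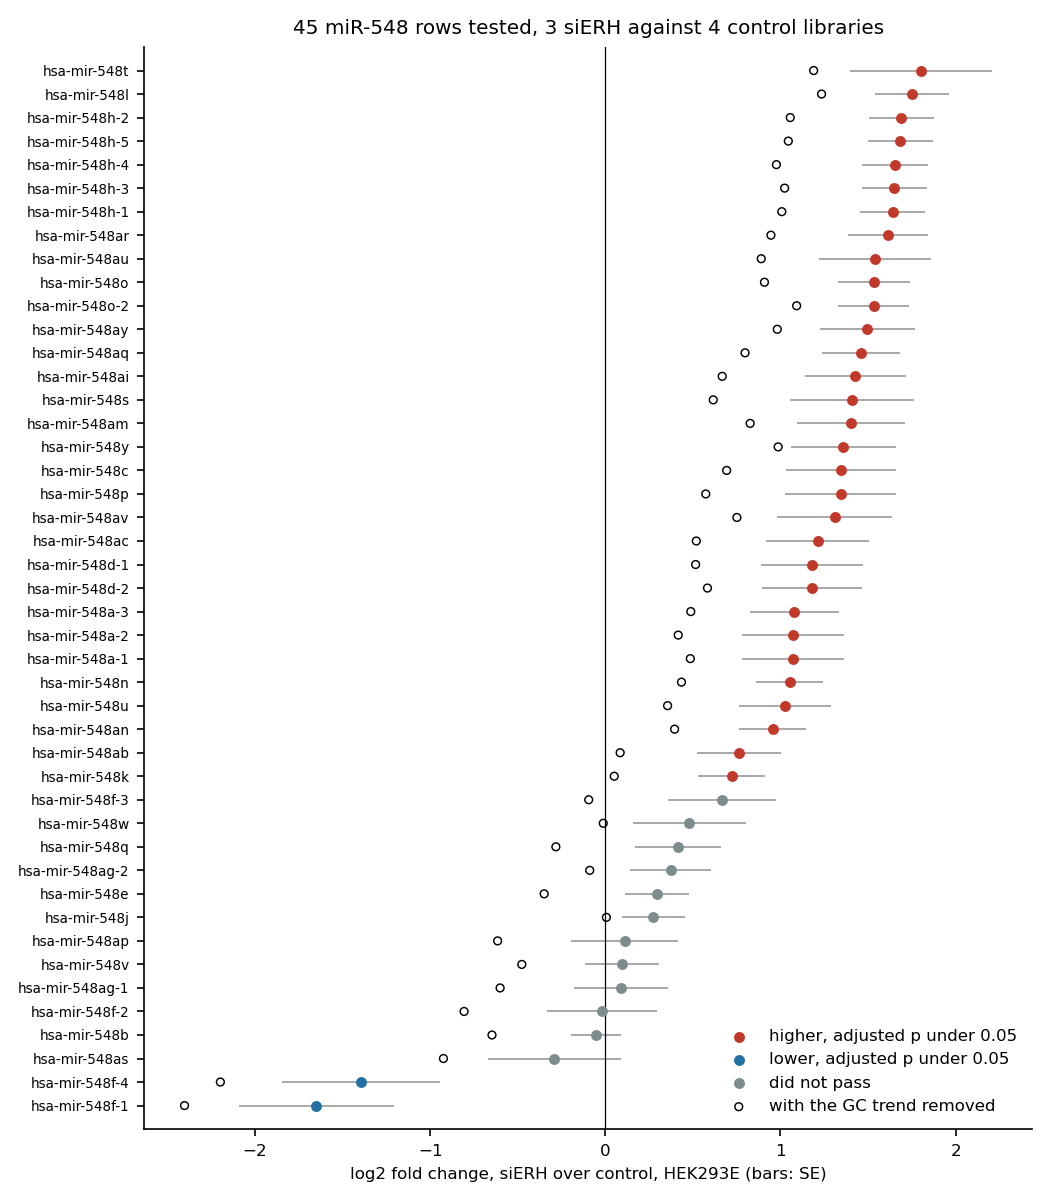
Log2 fold change of siERH over control in HEK293E for the 45 miR-548 rows tested, with bars for the SE; red was called higher, blue lower and grey did not pass, and open circles give the value after removal of the trend with GC content. Of the filled points, 31 are red and 2, hsa-mir-548f-1 and hsa-mir-548f-4, are blue, and the open circles lie to the left of the filled ones with a median of 0.52 against 1.18.

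The largest fitted log2 fold change, that of hsa-mir-548t (chr4:173268160-173268233, plus strand, in an intron of GALNT7), belongs to one of the rows that reached the count minimum only through the siERH libraries. It had 7 and 2 counts with siGFP, 13 and 5 with siControl, 25 and 28 with siERH-3 and 32 with siERH-5. Every siERH library was above every control library, though at low counts. The log2 fold change was 1.80 ± 0.40 (SE, adjusted p = 0.00649 by edgeR).

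hsa-mir-548l (chr11:94466495-94466580, minus strand, in an intron of MRE11) rose 3.36-fold at higher counts. It had 121 and 65 counts with siGFP, 89 and 105 with siControl, 402 and 418 with siERH-3 and 316 with siERH-5. The groups were far apart, and the lowest siERH library held more than 2 times the count of the highest control. Its log2 fold change was 1.75 ± 0.21 (SE, adjusted p = 0.000139 by edgeR), and its GC content of 39.5% was above the family median.

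The 5 rows hsa-mir-548h-1 to mir-548h-5 rose together. They lie on chromosomes 14, 16, 17, 8 and 6, in introns, antisense to a gene or between genes, and their summed HEK293E and K562 counts had a lowest-to-highest ratio of 0.910. For mir-548h-2 (chr16:11306440-11306527, minus strand, antisense to RMI2) the counts were 117 and 82 with siGFP, 106 and 114 with siControl, 379 and 429 with siERH-3 and 409 with siERH-5. No siERH library overlapped the controls. TMM CPM went from 37.1 ± 4.42 (SD, n = 4) to 119.7 ± 9.77 (SD, n = 3), a log2 fold change of 1.69 ± 0.19 (SE, adjusted p = 8.02e-05 by edgeR). The other 4 rows had log2 fold changes of 1.64 to 1.68, and the 5 cannot be taken as 5 results.

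Of the other large increases, hsa-mir-548ar (chr13:114244505-114244561, plus strand, in an intron of CDC16) had 84 to 107 counts in the controls and 278, 348 and 459 in the siERH libraries. Its log2 fold change was 1.62 ± 0.23 (SE, adjusted p = 0.000471 by edgeR). The near-identical pair mir-548o and mir-548o-2 reached 1.54 ± 0.21 and 1.53, with 93 to 154 counts in the controls and 322 to 505 in the siERH libraries. These groups did not overlap either. hsa-mir-548au, in an intron of PHF2, rose from 5 to 15 counts in the controls to 31 to 38, with a log2 fold change of 1.54.

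The abundant rows mir-548a-1, mir-548a-2 and mir-548a-3 are copies of each other. For mir-548a-3 the counts were 420 and 530 with siGFP, 502 and 697 with siControl, 1216 and 1375 with siERH-3 and 1629 with siERH-5. All siERH libraries were above all controls, and the log2 fold change was 1.08 ± 0.25 (SE, adjusted p = 0.00796 by edgeR). Without the siERH-5 library, mir-548a-1 and mir-548a-2 lost their calls while mir-548a-3 kept it. The copies mir-548d-1 and mir-548d-2 rose by 1.18 each on the log2 scale, from 140 to 231 counts to 445 to 574.

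Among the abundant members, hsa-mir-548e (chr10:110988926-110989013, plus strand, in an intron of SHOC2) did not pass. It had 843 and 433 counts with siGFP, 785 and 614 with siControl, 1031 and 891 with siERH-3 and 990 with siERH-5, a log2 fold change of 0.30 ± 0.19 (SE, adjusted p = 0.234 by edgeR). Its TMM-scaled levels overlapped between control and siERH libraries. The largest changes that did not pass were those of mir-548f-3, mir-548w and mir-548q, at 0.67, 0.48 and 0.41. With the replicate number as a block, mir-548w was called as well (0.66, adjusted p = 0.0227), which made 32 members higher and 2 lower, against 28.1% and 20.6% of all hairpins.

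Members with the same seed differed in their calls. Of the 11 hairpins with an AAAGUAA sequence, 9 were tested, of which 4 were called higher and 5 did not pass, with log2 fold changes from -0.29 to 1.62. Of the 4, mir-548y was admitted only through the siERH libraries. Over all hairpins tested, 23.8% were called higher. Of the 6 with seed AAAACUG, 1 was called higher (mir-548ar), 2 lower, 2 did not pass and 1 was not tested. Each kind of position held members of both kinds. Among the 31 higher members 20 were intronic, 8 intergenic and 3 antisense, and among the 12 that did not pass 8 were intronic, 3 intergenic and 1 antisense. No test of these splits was made.

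The increase was seen in each siERH library against the controls of its own replicate number. Of the 45 members, 42 were above the mean of those controls in siERH-3 replicate 1, 39 in siERH-3 replicate 2 and 39 in siERH-5 replicate 2. The median difference over the 45 members was 1.04 for siERH-3 replicate 1, 0.95 for siERH-3 replicate 2 and 0.92 for siERH-5 replicate 2 on the log2 scale, against 0.11, 0.02 and 0.05 over all hairpins. Leaving out each library in turn gave 28 to 32 members called higher, against 17.7% to 24.5% of all hairpins. The calls of mir-548ab and mir-548k were lost without either siERH-3 library, and that of mir-548ab also without the second siGFP library or the siERH-5 library. Without the first siGFP library, mir-548f-3 was called higher as well (0.94).

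Beside hairpins of like abundance, a larger share of the members was called higher at each level from a mean of 30 to 1000 counts. At a mean of 10 to 30 counts over the HEK293E libraries, 7 of 12 members (58.3%) and 46 of 192 other hairpins (24.0%) were called higher, with median log2 fold changes of 1.33 and 0.18. Of these, 5 members and 26 other hairpins called higher had a control mean under 10 counts and were admitted only through the siERH libraries, so nothing is read from this lowest level. At 30 to 100 counts the numbers were 7 of 10 (70%) and 41 of 140 (29.3%). At 100 to 300 they were 10 of 14 (71.4%) and 33 of 105 (31.4%). At 300 to 1000 they were 7 of 8 (87.5%) and 19 of 71 (26.8%), with medians of 1.07 and 0.06. The family's 1 member above 1000 counts, mir-548b, was not called, and of the other 220 hairpins at that level 14 (6.36%) were called higher. These are descriptions, since members that may share reads are not independent and no test of the difference was made.

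**Figure D3:**
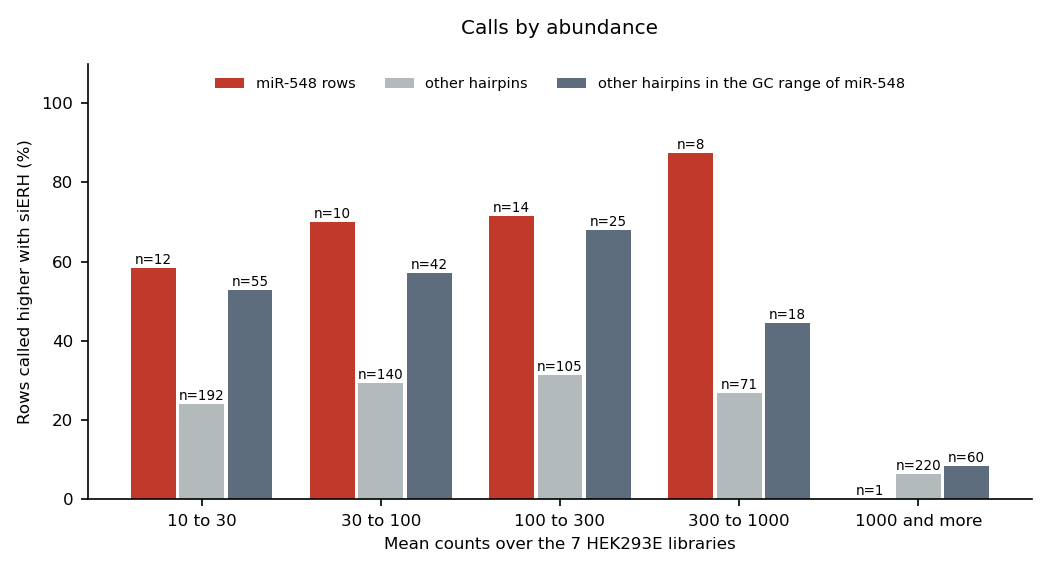
Percent of rows called higher with siERH in HEK293E by mean count (horizontal axis), for miR-548 rows in red, all other hairpins in light grey, and other hairpins within the GC range of the family in dark grey; n is the number of rows behind a bar. The red bars stand at 58.3% to 87.5% below 1000 counts, the light bars at 24.0% to 31.4%, and the dark bars at 44.4% to 68%. Nothing is read from 10 to 30 counts, where some rows were admitted only through the siERH libraries.

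Low GC content went with higher siERH values outside the family too. Across the other 727 tested hairpins with a sequence, GC content and the log2 fold change had a Pearson correlation of -0.285. This is across hairpins, which share libraries and are not replicates. Among the other hairpins within the GC range of the family, 83 of 200 (41.5%) were called higher, with a median of 0.52, whereas at 50% GC and above 42 of 420 (10%) were. With both abundance and GC range alike, the other hairpins called higher were 29 of 55 (52.7%) at 10 to 30 counts, 24 of 42 (57.1%) at 30 to 100, 17 of 25 (68%) at 100 to 300 and 8 of 18 (44.4%) at 300 to 1000. The median log2 fold changes of members and of these hairpins were 1.33 and 1.06 at 10 to 30 counts, 1.04 and 1.04 at 30 to 100, 1.58 and 0.91 at 100 to 300, and 1.07 and 0.51 at 300 to 1000. Nothing is read from 10 to 30 counts, where some rows were admitted only through the siERH libraries. From 30 to 1000 counts, the members' shares (70%, 71.4% and 87.5%) were nearest to these at 100 to 300 and farthest at 300 to 1000. The medians were alike at 30 to 100 counts and farthest apart at 100 to 300. The 14 members at 100 to 300 include the copies of mir-548h and mir-548o, and the 8 at 300 to 1000 those of mir-548a and mir-548d. Only the limits of GC content were alike in this comparison. Of the hairpins tested, 101 others but 5 members lay at 40% to 45% GC.

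By GC content, 16 of 19 members at 35% to 40% were called higher, against 35 of 65 other hairpins, with medians of 1.40 and 0.79. At 30% to 35% the numbers were 10 of 15 and 10 of 31, with medians of 1.02 and 0.48. Under 30% they were 3 of 6 and 8 of 14, and at 40% to 45% 2 of 5 and 35 of 101. These bins hold members admitted only through the siERH libraries: mir-548am, mir-548av and mir-548t at 35% to 40%, mir-548c at 30% to 35% and mir-548y at 40% to 45%. Over all GC contents, 29 of the other hairpins called higher were admitted in that way. The shares and medians are thus in part set by the count minimum, and copies such as the mir-548h rows count separately. Within the 45 members GC content and the log2 fold change had a Pearson correlation of 0.215, of the opposite sign to that over the other hairpins.

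**Figure D4:**
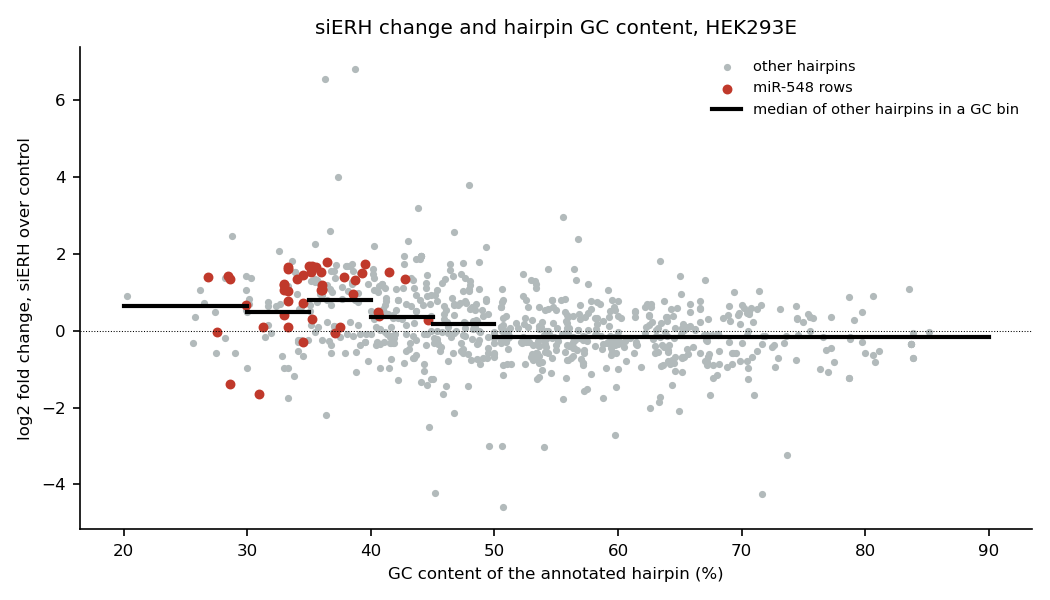
Log2 fold change of siERH over control in HEK293E (vertical axis) against GC content of the annotated hairpin in percent (horizontal axis), with miR-548 rows in red, other hairpins in grey and the median of the other hairpins in each GC bin as a black line. The black lines stand at 0.63 under 30% GC and 0.48 at 30% to 35%, and fall from 0.79 at 35% to 40% to -0.17 at 50% and above. Most red points lie above them.

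When the trend with GC content over all hairpins was removed inside the fit, 13 of 45 members (28.9%) were called higher and 3 (6.67%) lower. Over all hairpins these shares were 15.8% and 19.4%, and the members' median fell from 1.18 to 0.52. The median over the other hairpins was then -0.07. The members were among the hairpins that set this trend, so part of their own change may have been removed with it. The 13 were mir-548aq, mir-548ar, mir-548ay, mir-548h-1 to mir-548h-5, mir-548l, mir-548o, mir-548o-2, mir-548t and mir-548y, all of them among the 31. Among the 13, the mir-548h rows are copies of each other, as are the mir-548o pair. The rows mir-548t and mir-548y were admitted only through the siERH libraries. The third one called lower was mir-548b, at -0.65 (adjusted p = 0.00676 by edgeR). With the replicate block as well, 19 (42.2%) were higher and 4 (8.89%) lower (mir-548b, mir-548f-1, mir-548f-4 and mir-548v), against 22% and 24.1% of all hairpins. What part of the members' increase goes with GC content and what part with other properties of these hairpins was not tested further.

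The 2 members called lower turned on the choice of control siRNA. hsa-mir-548f-1 (chr10:54607874-54607957, minus strand, in an intron of PCDH15) had 421 and 307 counts with siGFP, 105 and 128 with siControl, 77 and 70 with siERH-3 and 126 with siERH-5. The siGFP libraries stood far above the rest, and siControl and siERH counts overlapped. On the TMM CPM scale the siERH libraries of hsa-mir-548f-1 lay at 21.3 to 35.8, just below the controls at 36.9 to 129.4, and it was the 1 member with all 3 siERH libraries below all 4 controls (19.1% of all hairpins). hsa-mir-548f-4 (chr7:147378017-147378121, minus strand, antisense to CNTNAP2) had 326 and 218 counts with siGFP, 82 and 81 with siControl, 74 and 55 with siERH-3 and 109 with siERH-5. It showed the same order, with siGFP alone high. The log2 fold changes against all 4 controls were -1.65 ± 0.44 (SE, adjusted p = 0.0135 by edgeR) and -1.39 ± 0.45 (SE, adjusted p = 0.0307).

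Against siControl alone they were -0.71 (adjusted p = 0.0915 by edgeR) and -0.39 (adjusted p = 0.335), and neither was called. In that fit 27 members were called higher and 0 lower, against 18.3% and 12.1% of all hairpins. Without the siERH-3 library of replicate 1, or without that of replicate 2, neither mir-548f-1 nor mir-548f-4 was called, and mir-548f-4 was also lost without either siGFP library or without siERH-5. Of the rows that share hsa-miR-548f-3p, mir-548f-2 and mir-548f-3 did not show this pattern, with 9 to 18 and 7 to 22 counts in the controls. hsa-mir-548f-5 had 10 and 2 counts with siGFP and 1 to 3 in every other HEK293E library.

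Between the control siRNAs, edgeR called 0 of 40 members and 0 of 730 hairpins (0% higher, 0% lower), with 24 hairpins at an unadjusted p under 0.05. Members at that unadjusted level were mir-548f-1 and mir-548f-4, with log2 fold changes of siControl over siGFP of -1.55 (adjusted p = 0.466) and -1.64 (adjusted p = 0.425). DESeq2 called 4 of the 730 hairpins, of which the 2 lower ones were members. With the replicate block, edgeR called 2 members lower, again mir-548f-1 (adjusted p = 1.01e-15) and mir-548f-4 (adjusted p = 3.76e-15), and 4 higher, mir-548a-1, mir-548a-2, mir-548a-3 and mir-548ay. Over all hairpins that fit called 9.86% higher and 8.36% lower, where the fit without the block called 0%. With 4 libraries, the block left little from which to measure spread. These p-values may therefore be too small, and no weight is put on their size. The median over the 40 members was 0.15 for siControl over siGFP, against 0.03 over all hairpins.

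In K562, with 1 library per siRNA and so no test, nearly all members were higher with siERH-5. Of the 41 members with a mean of at least 10 counts, 40 had a log2 ratio above 0 (56% of all 646 hairpins), and the exception was mir-548ap at -0.18. However, 9 of the 41 had under 10 counts with siGFP and were admitted only through siERH-5, while mir-548as (7 and 2 counts) and mir-548ae-1 (10 and 9) were not. Among the other 32, 31 had a ratio above 0, with a median of 0.60. The median ratio was 0.61 on the log2 scale of TMM CPM plus 1, against 0.11 over all hairpins. At least 2-fold higher were 8 members (10.1% of all hairpins), 4 of them admitted only through siERH-5, and at least 2-fold lower were 0 (6.81%). With library totals in place of TMM the medians were 0.87 for members and 0.37 for all hairpins.

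Among the rows admitted only through siERH-5 were those of largest ratio, mir-548ay, which went from 5 counts (siGFP) to 50 (siERH-5), a log2 ratio of 2.24, and mir-548au, with 6 and 36 counts (1.62). Next were the copies mir-548o and mir-548o-2, with 122 and 446 counts for mir-548o (1.23). hsa-mir-548d-1 went from 246 to 742 counts and mir-548b from 906 to 2096, at log2 ratios of 0.96 and 0.58. The rows mir-548h-1 to mir-548h-5, among the largest increases in HEK293E, had 66 to 74 counts with siGFP and 160 to 180 with siERH-5, at ratios of 0.58 to 0.68. Of the 31 members called higher in HEK293E, 30 could be measured in K562. All 30 had a ratio above 0, against 56% of all 646 hairpins, and their median was 0.76. Of the 30, mir-548ab, mir-548au, mir-548av, mir-548ay, mir-548t, mir-548u and mir-548y were admitted in K562 only through siERH-5, which favours a ratio above 0. The 6 measured members that did not pass in HEK293E had a median of 0.47, and 5 were above 0. Over the 36 members measured in both lines the changes had a Pearson correlation of 0.456 and a Spearman correlation of 0.485. These are descriptions, since copies may share reads and some rows were admitted only through siERH libraries in 1 line or both.

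**Figure D5:**
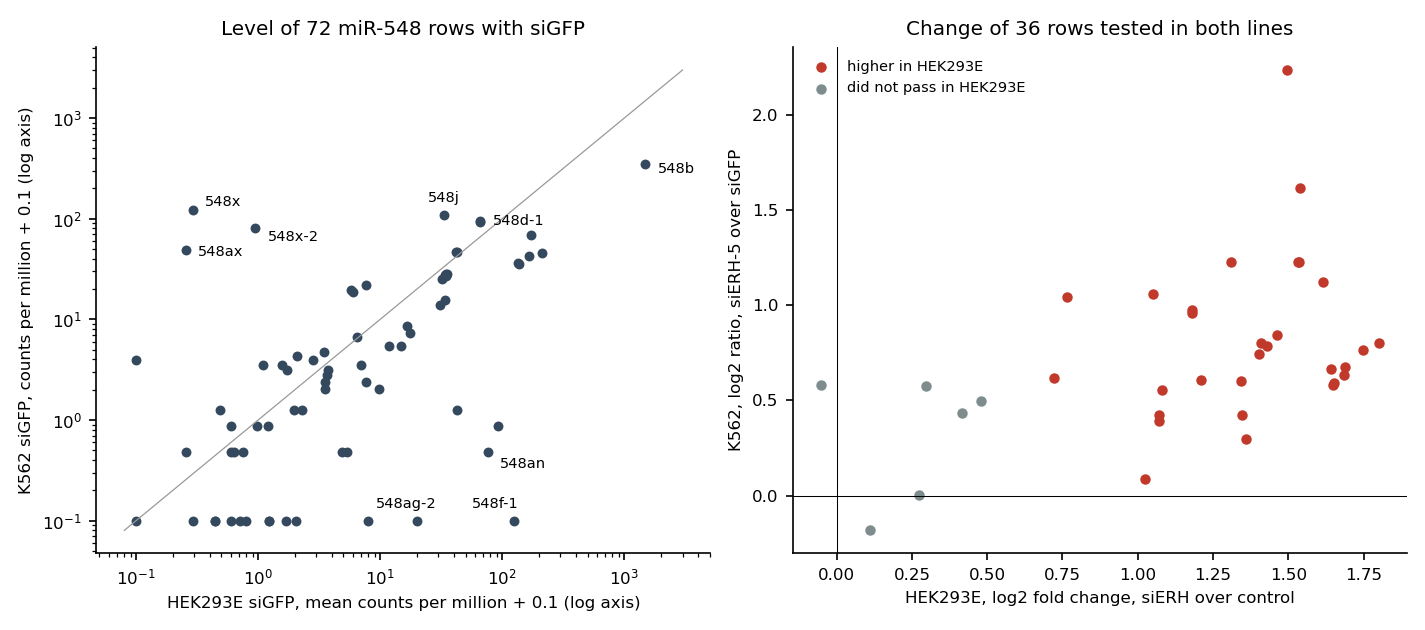
Left, CPM of library totals plus 0.1 with siGFP for the 72 miR-548 rows, HEK293E mean of 2 libraries against the K562 library, on log axes with the line of equal level; right, the log2 fold change in HEK293E against the log2 ratio in K562 for the 36 rows measured in both. On the left mir-548x, mir-548x-2 and mir-548ax stand far above the line and mir-548f-1, mir-548an and mir-548ag-2 far below it, and on the right 35 of 36 points have a K562 ratio above 0. Some of the 36 rows reached the count minimum only through siERH libraries.

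The lines differed in which members they held. With siGFP, the 5 most abundant members held 50.04% of the family's counts in K562, and 66.1% in the HEK293E control libraries, where mir-548b alone held 43.1%. By counts the order in the HEK293E control libraries was mir-548b (16239 in all), mir-548e (2675), mir-548a-3 (2149), mir-548k (2057) and mir-548a-2 (1769). In the K562 siGFP library it was mir-548b (906), mir-548x (318), mir-548j (287), mir-548d-1 (246) and mir-548d-2 (241). hsa-mir-548x (chr21:18686090-18686164, minus strand, in an intron of its host gene MIR548XHG) had 318 and 655 counts in the K562 libraries and 0 to 4 in each HEK293E library. Its relative mir-548x-2 had 210 and 427 against 0 to 4, and mir-548ax, in an intron of ARHGAP6 on chromosome X, had 127 and 279 against 0 or 1. These 3 rows were present in 1 line and at or near the floor in the other. Members named with values in this paragraph and the next, and mir-548ay, mir-548ap, mir-548ab, mir-548ae-1, mir-548k and mir-548f-5, were in part picked after their values were seen.

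Other members were at or near 0 in K562. hsa-mir-548f-1 had no count in K562, which makes it at least 108-fold higher in HEK293E with siGFP as CPM of library totals, against the floor of 3 counts in the K562 siGFP library. Against the siControl libraries, where this row is much lower, the bound is 33.4-fold, and why the row is high with siGFP was not tested. By the bound with siGFP mir-548ag-2 was at least 17.4-fold and mir-548ag-1 at least 6.90-fold higher. hsa-mir-548an, in an intron of CXorf57, had 293 and 161 counts in the siGFP libraries of HEK293E and 1 in that of K562, and mir-548v had 134 and 114 against 3.

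Smaller differences between the lines depended on the scaling. By TMM, 10 of 41 members were at least 2-fold higher in HEK293E and 13 at least 2-fold lower (31.2% and 23.8% of 741 hairpins), and by library totals 21 and 7. By library totals the median of all hairpins was itself past 2-fold, so nothing about the members is read from these last counts. The members' median log2 ratio of HEK293E over K562 was -0.05 by TMM and 1.01 by library totals, and that of all hairpins 0.18 and 1.26, so the members' median lay below that of all hairpins by either scaling. For mir-548b, HEK293E was 1.95-fold higher by TMM and 4.28-fold by library totals, and for mir-548j K562 was 6.99-fold and 3.28-fold higher. For mir-548d-1, K562 was 3.00-fold higher by TMM and 1.43-fold by library totals. With 1 K562 siGFP library these have no replicate check.

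Other hairpins derived from transposable elements gave mixed calls. Of 23 listed rows, 10 were tested, of which 2 were called higher and 4 lower in HEK293E, with a median log2 fold change of -0.24. Of all hairpins tested, 23.8% were called higher and 16.2% lower. The 2 higher ones, hsa-mir-570 (1.38, adjusted p = 0.000768 by edgeR) and hsa-mir-579 (0.71, adjusted p = 0.0210), are MADE1-related, and the seed of hsa-miR-570-5p is also found in the family, in hsa-miR-548ag, hsa-miR-548ai and hsa-miR-548ba. The 4 lower ones, hsa-mir-95, hsa-mir-151b, hsa-mir-584 and hsa-mir-652, come from other elements and had GC contents of 40.7% to 54.2%. Those of hsa-mir-570 and hsa-mir-579 were 37.1% and 32.7%. The 4 that did not pass also come from other elements. They were hsa-mir-224 (1.10, adjusted p = 0.0582 by edgeR), hsa-mir-340 (0.16), hsa-mir-28 (-0.16) and hsa-mir-151a (-0.31). All listed hsa-mir-1302 rows were below the minimum for testing.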

How the data were processed

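The authors deposited raw counts per miRNA hairpin for 9 libraries, whole numbers with blank cells read as 0. Their deposited RPM table was recomputed from these counts: RPM is the count plus 1 over the library total plus 1485, per 1e+06. The RPM values entered only the limma alternative. Per the submitters' processing notes, cutadapt, Bowtie2 and bedtools were used with build hg38. Their versions, the miRNA annotation, the treatment of reads that fit several hairpins, the use of strand and any collapsing of duplicate reads are not given in the sources used here. Per the labels, spike-in RNAs were added, and they were not used here.

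Libraries were grouped by line, siRNA and replicate number from their titles. Counts were tested with edgeR 4.0.16 in R 4.3.3 (TMM, quasi-likelihood, hairpins averaging 10 counts or more, Benjamini-Hochberg adjustment over all hairpins tested). K562 log2 ratios were taken of TMM CPM with a pseudocount of 1 added. The titles' replicate numbers follow the labelled experimental groups, and same-numbered libraries deviated together over 773 hairpins (r = 0.692, 0.480 and 0.519), so they pair the samples. Unless stated, the calls and p-values above are from the fit without this pairing. A fit with the number as a block was an alternative, as were DESeq2 1.42.0, limma 3.58.1, library totals, other filters, GC trend removal, collapsed copies and leaving out each library. The test was tested on simulated data, where it called 149 of 200 hairpins changed 2-fold among 773, with 6 unchanged ones. A simulated GC trend alone gave 224 calls, and 0 after its removal. As no real change was put in beside that trend, this does not show what the removal does to real changes of low-GC hairpins. Rows were taken as copies where all their mature sequences were equal, or where they shared a numbered name and the ratio of their total counts was at least 0.8. Hairpins were taken from GENCODE 29 (GRCh38, the assembly of hg38), matched for 1480 of 1485 rows, and folded with RNAfold 2.7.2. The members, lists and rules were chosen with earlier results of these data known. Members were named by a rule: the largest changes called, the 5 highest in each line, the 3 on each side of the count minimum and the 3 largest changes not called.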

Additional observations from a re-analysis of the deposited data

Results flagged for a closer look

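The 4 control libraries of HEK293E were examined for a sample far from the rest in each of 30 named members. One such sample was found, in hsa-mir-548h-3, where the library farthest from the others stood at 44.5 TMM CPM. Chance flags about 1 in 20 groups, and mir-548h-3 has nearly the same counts as the other mir-548h rows.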

How the results depend on the processing

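Copies that may share reads, 1 library per K562 group and rows that merge both arms limit all values, and rows with few counts carry wide errors. Members called higher (31) numbered 27 to 32 in all settings other than GC removal (13, or 19 with the replicate block) and copy collapsing, and 28 to 32 when 1 library was left out. Of all hairpins, 13.2% to 28.1% were called higher in the former settings and 17.7% to 24.5% with 1 library left out. In every setting without GC removal or collapsing, 20 members were called higher, and the share of all hairpins that did so is not given here. Among the 20, the mir-548h rows, the mir-548d pair and the mir-548o pair are copies, and mir-548am and mir-548t were admitted only through the siERH libraries. Members called lower (2) were 1 by library totals, 0 by limma, 0 with siControl only, 4 with the replicate block and GC removal, and 0 to 2 with 1 library left out. Between siControl and siGFP, DESeq2 gave 2 lower, and the replicate block 2 lower and 4 higher. Over all hairpins, 125 called lower became 67 by library totals, 66 by limma and 76 to 130 with 1 library left out (76 and 77 without a siERH-3 library), and 184 called higher became 122 with GC removal. The members' median (1.18) was 1.38 by library totals, 1.03 at a mean of at least 1 count, 0.97 unfiltered, 1.01 in replicate 2, 0.52 with GC removal, 0.49 with the block as well and 0.99 to 1.28 with 1 library left out. Library totals moved the median of all hairpins from -0.01 to 0.19. In K562, 8 members at least 2-fold higher became 15 by library totals, 3 with a pseudocount of 5 and 4 at a mean of at least 30 counts. Of members higher in HEK293E than K562 (10), library totals gave 21 and a mean of at least 30 counts 6, and of those lower (13) library totals gave 7. No shares of all hairpins are given for these counts in either comparison, so they show only how the numbers depend on the setting. GC removal turned the sign of 8 of the 12 members not called, to -0.61 (mir-548ap) at the lowest and -0.012 (mir-548w) at the highest. Signs that turned among the named members were those of mir-548b at 0.13 by library totals and 0.14 by limma, mir-548e at -0.35 and -0.26, mir-548f-3 at -0.095 and -0.0031 and mir-548q at -0.28 and -0.28 under GC removal without and with the block, mir-548as at 0.20 with siGFP only, and mir-548f-2 at 0.16 by library totals, 0.13 by limma, 0.16 with siControl only and -0.19 to 0.12 with 1 library left out. Without GC removal, the replicate block changed no other call of a member in the siERH comparison than that of mir-548w. The causes were not tested.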
